A study of Camelina sativa with 12 samples.

Results

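Camelina roots that expressed *acdS* from the constitutive CaMV *35S* promoter were compared with roots of the untransformed DH55 line, the control, under the same salt treatment. Both groups were 28 days old and had been watered with 192 mM NaCl (15 dS/m) for 21 days, and neither is described as treated with bacteria. Control soil received MgSO4 solution in place of bacteria, which the study does not state separately for the transgenic plants. *acdS* encodes 1-aminocyclopropane-1-carboxylate (ACC) deaminase, a bacterial enzyme, and the study describes the *35S::acdS* plants as a homozygous, single-insert line of DH55. The comparison used 6 of 12 libraries, 3 *35S::acdS* and 3 control. The other 6 came from plants with *acdS* under the root promoter *rolD* (*rolD::acdS*) and from DH55 plants whose soil was treated with the ACC deaminase-producing bacterium *P. migulae* 8R6, 3 libraries each, all under salt. Root RNA was sequenced, and expression is given as CPM, read counts scaled to library size, in whole numbers. Genes entered the comparison when they reached 1 CPM in at least 3 of the 12 libraries, which was the case for 48099 of 49932 genes. No unsalted plants were analysed here, so every difference below is between 2 kinds of salt-treated root, and the transcript of *acdS* itself was not analysed here.

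ACC is the precursor of ethylene, and ACC deaminase breaks it down, so the enzyme is known for lowering the ethylene that plants make under stress. In salt-treated roots, sodium and potassium are moved between the xylem and the cells of the stele by transporters of the HKT and SKOR types, water passes through aquaporins, and the Casparian strip of the endodermis limits the flow around the cells. Camelina is a hexaploid relative of Arabidopsis, so that most Arabidopsis genes have several camelina copies. Roles named below are those known from Arabidopsis unless stated otherwise, and gene names follow the annotation of the study. Reads of near-identical copies may have been shared out by the counting, which makes the level of a single copy less certain than that of the set.

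The libraries of the 2 groups were close to each other. Across tested genes, Pearson's r on the log2 scale was 0.948 to 0.966 between *35S::acdS* libraries, 0.955 to 0.960 between control libraries, and 0.927 to 0.973 between a *35S::acdS* and a control library (genes are not independent replicates). *35S::acdS* replicate 2 was more like control replicate 1 than like either library of its own group. Among 34270 genes with a mean of at least 5 CPM in a group, *35S::acdS* replicates 1, 2 and 3 were over 2 times both other libraries of the group for 122, 22 and 196 genes, against 171, 23 and 214 genes for control replicates 1, 2 and 3. Summed CPM were 894793 to 913361 in *35S::acdS* and 891862 to 938888 in control libraries, and the number of reads behind them is unknown. As a check of the tissue, 4 light-harvesting genes, which stand for green shoot tissue, summed to 5 to 20 CPM in *35S::acdS* libraries (highest in replicate 3) and to 4 CPM in each control library. The study had named these genes as up-regulated on these data, 3 in *35S::acdS* and 1 in *rolD::acdS* roots. The higher sum in *35S::acdS* libraries is therefore not independent of that choice. The part of these 4 genes in the results was not tested. The root genes HKT1, SKOR and those of the CASP-like family, described below, had at least 1 CPM in all 6 libraries.

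The test with limma over all of these genes called 0 above and 0 below the control in *35S::acdS* roots, or 0% in each direction, where a call needed both an adjusted p no larger than 0.05 and a log2 fold change beyond 0.8 in size. The smallest adjusted p was 0.141, so that all values below describe these libraries and none passed the test. At an unadjusted p under 0.05, 1446 genes were higher (3.01%) and 1981 were lower (4.12%), and without *35S::acdS* replicate 1 the number higher was 896. Leaving out 1 library at a time gave 0 calls except without 8R6 replicate 1 (6 genes, none above 2 CPM in the libraries compared), 8R6 replicate 3 (2 genes) and *35S::acdS* replicate 3 (1 gene). All 3 *35S::acdS* libraries lay above all 3 control libraries for 1663 genes (3.46%) and below them for 2127 genes (4.42%). Among these, 193 higher and 194 lower genes also had a log2 fold change beyond 0.8. The median log2 fold change was 0 and the median of its absolute value 0.15. The whole-number steps weigh most at low levels: for 4012 genes under 2 CPM the fold change had a median standard error (SE) of 0.36 on the log2 scale, against 0.13 for 8029 genes at 20 to 50 CPM. The share of genes without overlap was 2.39% under 2 CPM and 12.5% at 20 to 50 CPM. Fold changes are *35S::acdS* minus control on the log2(CPM + 0.5) scale, which understates the change of genes at a few CPM, and library values are given in the order of replicates 1, 2 and 3.

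**Figure D1:**
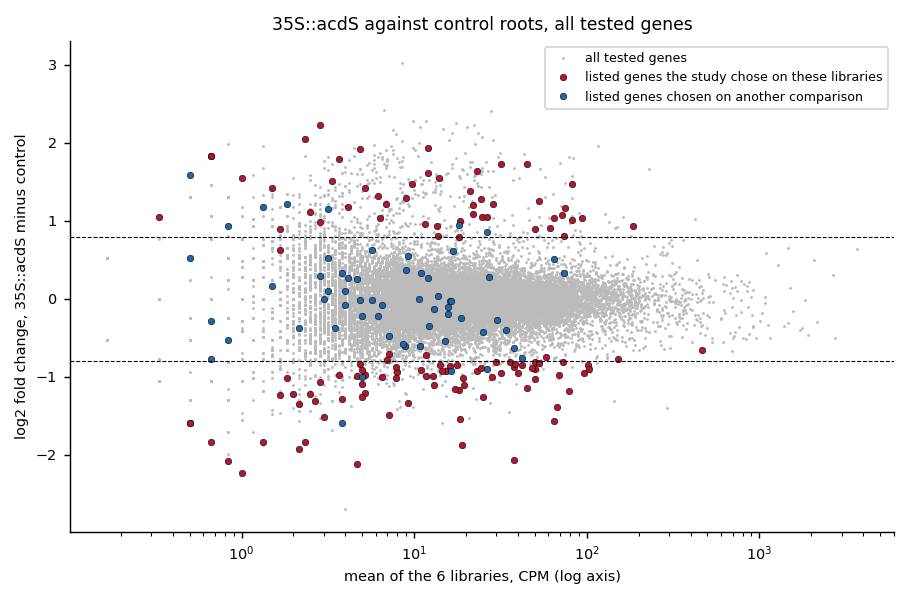
Each point is a gene, with the mean CPM of the 6 libraries on a log x axis and the log2 fold change (*35S::acdS* minus control) on the y axis. The dashed lines mark 0.8 in each direction, red points are listed genes that the study chose on these libraries, and blue points are listed genes chosen on another comparison, which mostly lie between the dashed lines. Grey points fan out at the left, where values move in steps of 1 CPM.

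The annotated genes with the smallest p among those higher in every *35S::acdS* library were led by a stress up-regulated Nod 19-like gene and by enzymes. Csa05g044810, annotated as probable aldo-keto reductase 6, an enzyme family that reduces carbonyl groups with NADPH, had 64, 58 and 65 CPM in *35S::acdS* roots, against 31, 29 and 32 CPM in control roots. The replicates of each group agreed closely and the groups were far apart (log2 fold change 1.01, SE 0.15, adjusted p = 0.167 from limma). Csa10g019050, a cellulose synthase-like G3 gene, had 25, 17 and 16 CPM in *35S::acdS* and 6, 4 and 4 CPM in control libraries (1.94, SE 0.29). Csa07g049770, with a DUF506 domain of unknown function, had 6, 6 and 7 CPM in *35S::acdS* and 2, 1 and 2 CPM in control libraries. Csa12g048450, a Mo25 family gene, had 7, 8 and 11 CPM in *35S::acdS* and 2, 3 and 3 CPM in control libraries, and Mo25 proteins are scaffolds of protein kinases in animals and yeast. A pair of cytochrome P450 72A13-like genes with neighbouring identifiers behaved alike. Csa19g021310 had 38, 33 and 36 CPM in *35S::acdS* and 16, 15 and 20 CPM in control libraries. Csa19g021290 had 10, 8 and 8 CPM in *35S::acdS* and 5, 3 and 4 CPM in control libraries. The other members of these 12 were 2 copies of UGT73C7 and a fluG-type gene, which are described with the glycosyltransferases, and Csa18g035240 (the Nod 19-like gene), Csa20g015440 (myo-inositol-1-phosphate synthase 3) and Csa05g053740 (a mechanosensitive channel of the MSCS-like 3 type), with log2 fold changes of 3.02, 1.48 and 1.03. Without *35S::acdS* replicate 3, Csa18g035240 had an adjusted p of 0.0464 from limma and a log2 fold change of 3.50, and without 8R6 replicate 3, Csa05g044810 had an adjusted p of 0.0398.

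The 12 annotated genes with the smallest p among those lower in every *35S::acdS* library held ion transport, redox, cytoskeleton and cell wall genes. Csa20g037790, a serine carboxypeptidase of the S28 family, had 9, 10 and 12 CPM in *35S::acdS* and 21, 20 and 19 CPM in control libraries (log2 fold change -0.93, SE 0.13, adjusted p = 0.167 from limma). Csa10g006090, ascorbate peroxidase 5, which removes hydrogen peroxide at the cost of ascorbate, had 8, 9 and 7 CPM in *35S::acdS* and 16, 14 and 14 CPM in control libraries. Csa05g059530, a myosin with a Dil domain, a motor that moves cargo along actin, had 16, 20 and 16 CPM in *35S::acdS* and 28, 34 and 30 CPM in control libraries. These 3 genes were at about the same level in all replicates of a group. Csa08g054360, annexin 7, a calcium-dependent membrane-binding protein, had 11, 14 and 11 CPM in *35S::acdS* and 20, 26 and 20 CPM in control libraries. Csa10g042300, the homeobox-leucine zipper gene HAT5, had 43, 53 and 47 CPM in *35S::acdS* and 79, 87 and 78 CPM in control libraries. Csa09g093150, annotated as beta-amyrin synthase, an enzyme that closes the rings of triterpenoids, had 4, 5 and 4 CPM in *35S::acdS* and 8, 8 and 8 CPM in control libraries. Less even was Csa09g099440, a short-chain dehydrogenase-type gene with a Rossmann fold, with 9, 12 and 9 CPM in *35S::acdS* and 42, 34 and 18 CPM in control libraries (-1.53, SE 0.28). The 5 others were Csa08g040240 (HKT1), Csa16g044260 (a hydroxyproline-rich glycoprotein) and Csa18g030770 (glutamine dumper 3), which return below, and Csa11g014420 and Csa16g003040, of unknown function, with log2 fold changes of -1.12 and -1.05. Except for Csa20g015440, which the study lists for 8R6-treated roots, the study had listed all the genes of these 2 sets for this same comparison, so their selection is not independent of these libraries.

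Genes without an annotation in the sources used here showed smaller differences with very even replicates. Csa01g010480 had 30, 29 and 30 CPM in *35S::acdS* and 23, 20 and 23 CPM in control libraries, and Csa15g030530 had 12, 12 and 13 CPM in *35S::acdS* and 9 CPM in each control library. In the other direction, Csa20g048720 had 7 CPM in each *35S::acdS* library and 12, 11 and 12 CPM in control libraries, and Csa00532s330 had 50, 56 and 47 CPM in *35S::acdS* and 82, 77 and 75 CPM in control libraries. Their log2 fold changes were 0.43, 0.43, -0.70 and -0.61, all inside the limit of 0.8.

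The gene lists below came from the annotation of the study, and 189 of their genes were tested. Of 129 that the study chose on these same libraries, 41 were higher and 74 lower without overlap, which restates that choice, while of 60 chosen on another treatment 3 were higher and 0 lower. The shares over all genes to set beside each of the following counts are 3.46% higher and 4.42% lower without overlap.

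Listed genes that move sodium, potassium and calcium were mostly lower in *35S::acdS* roots. Of 10 listed genes, 9 were tested and 0 were called. In 7 of them all *35S::acdS* libraries were below all control libraries and in 2 above, beside 4.42% and 3.46% of all genes, and their median log2 fold change was -1.22, beside 0 over all genes. The study chose all of them on these libraries, so the count is not independent evidence of a direction. HKT1 retrieves sodium from the xylem in the root. Its copy Csa08g040240 had 24, 45 and 30 CPM in *35S::acdS* and 104, 115 and 72 CPM in control libraries (-1.56, SE 0.30, adjusted p = 0.332 from limma). The copy Csa02g026480 had 20, 39 and 26 CPM in *35S::acdS* and 70, 72 and 45 CPM in control libraries (-1.15, SE 0.29). Both copies were highest in replicate 2 of the *35S::acdS* group and lowest in replicate 3 of the control, and their sum was 61.3 ± 20.5 CPM in *35S::acdS* and 159 ± 37.2 CPM in control roots (SD, n = 3). By library the sum was 174, 187 and 117 CPM in control and 108, 78 and 96 CPM in 8R6 libraries, so every 8R6 library was also below the control. In *rolD::acdS* libraries it was 159, 101 and 81 CPM, with replicates 2 and 3 below the control. Lower HKT1 was thus not particular to *35S::acdS* roots.

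The outward potassium channel SKOR, which releases potassium into the xylem, showed the same direction in 3 copies. Csa19g004960 had 2, 5 and 4 CPM in *35S::acdS* and 9, 12 and 11 CPM in control libraries. Csa15g002540 had 2, 2 and 3 CPM in *35S::acdS* and 5 CPM in each control library. Csa01g002460 had 1 CPM in each *35S::acdS* library and 3 CPM in each control library. Summed over the copies, SKOR stood at 7.00 ± 1.73 CPM in *35S::acdS* and 18.7 ± 1.53 CPM in control roots (SD, n = 3). KAT1 (Csa11g065760), an inward potassium channel, and the cation/calcium exchanger CCX1 (Csa20g026050) were listed at 0 in each *35S::acdS* library and at 1 CPM in each control library, which is 1 rounding step. The 2 genes on the other side were AKT2/3 (Csa11g023970), a weakly rectifying potassium channel of the phloem, with 2, 3 and 2 CPM in *35S::acdS* and 1 CPM in each control library, and Csa15g040690, a P-type (E1-E2) ATPase. The ATPase had 7, 6 and 17 CPM in *35S::acdS* and 3, 3 and 5 CPM in control libraries, with replicate 3 apart from the others. In a bulk root sample, fewer cells of the stele and less RNA per cell cannot be told apart.

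Of 5 aquaporin genes, 2 were lower and 2 higher without overlap (4.42% and 3.46% of all genes), and these 4 were chosen by the study on these libraries. Of the vacuolar aquaporins, TIP1;1 (Csa06g039470) had 100, 118 and 116 CPM in *35S::acdS* and 164, 181 and 231 CPM in control libraries (-0.77, SE 0.24), and the gene annotated TIP2-3 (Csa12g048400) had 9, 10 and 11 CPM in *35S::acdS* and 18, 17 and 20 CPM in control libraries. Of the plasma membrane aquaporins, the PIP2E-type copy Csa05g014270 had 8, 10 and 9 CPM in *35S::acdS* and 3, 3 and 4 CPM in control libraries (1.31, SE 0.54), and Csa06g042950 had 2, 2 and 3 CPM in *35S::acdS* and 0, 1 and 1 CPM in control libraries. The fifth gene, NIP2-1 (Csa06g036830), chosen on the *rolD::acdS* libraries, overlapped, with 1, 2 and 8 CPM in *35S::acdS* and 1, 1 and 11 CPM in control libraries. None of the 5 was called. *rolD::acdS* libraries had 3, 1 and 3 CPM of Csa05g014270, at the level of the control.

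All 3 Casparian strip membrane protein-like (CASP-like) genes, of a family whose best-known members guide lignin deposition at the endodermal barrier, were lower in every *35S::acdS* library, and all 3 were chosen by the study on these libraries. Csa11g025830 had 8, 16 and 13 CPM in *35S::acdS* and 29, 29 and 21 CPM in control libraries. Its copy Csa12g038900 had 12, 21 and 15 CPM in *35S::acdS* and 33, 32 and 26 CPM in control libraries, and Csa17g019540 had 3 CPM in each *35S::acdS* library and 6, 7 and 8 CPM in control libraries. On the log2 scale the differences were -1.10, -0.93 and -1.09 (SE 0.30, 0.27 and 0.35), and limma gave an adjusted p of 0.470, 0.505 and 0.556. The *rolD::acdS* libraries did not form a group of their own in these genes: replicate 1 was near the control and replicates 2 and 3 near *35S::acdS*, as for Csa11g025830 with 23, 13 and 11 CPM in *rolD::acdS*. The same order of replicates was seen for SKOR (17, 4 and 2 CPM of Csa19g004960) and TIP1;1 (175, 114 and 91 CPM) in *rolD::acdS* roots.

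**Figure D2:**
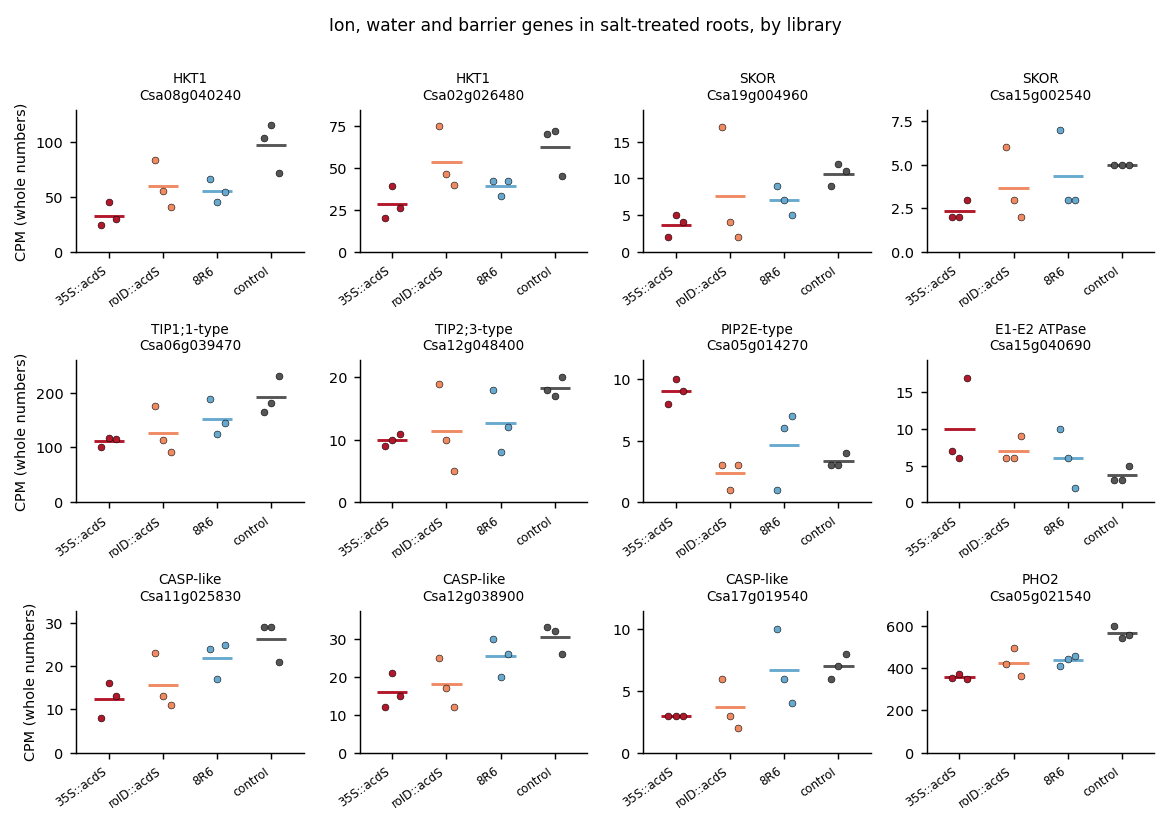
Each panel is a gene, with CPM in whole numbers on the y axis from 0, points for the 3 libraries of each group in the order of replicates, and a bar for the group mean. *35S::acdS* stands left and the control right. The *35S::acdS* points lie below the control points in every panel except PIP2E-type and the E1-E2 ATPase, where they lie above, and *rolD::acdS* replicate 1 is the highest of its group for HKT1, SKOR, TIP and CASP-like genes.

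Listed structural proteins of the cell wall, all chosen by the study on these libraries, were lower. Hydroxyproline-rich glycoproteins, which are cross-linked into the wall, gave 4 genes in 2 copy pairs. Csa16g044260 had 56, 91 and 72 CPM in *35S::acdS* and 150, 134 and 119 CPM in control libraries (-0.90, SE 0.16). Csa11g003380 had 36, 58 and 46 CPM in *35S::acdS* and 108, 90 and 77 CPM in control libraries. Their partners Csa07g052600 and Csa10g003030 and the glycine-rich gene Csa05g082050 had log2 fold changes of -0.89, -0.96 and -1.02, and all 5 were lower without overlap (4.42% of all genes). In each of them replicate 1 was the lowest *35S::acdS* library and the highest control library. An extensin-2-like gene, Csa16g023060, had 58, 52 and 89 CPM in *35S::acdS* and 133, 138 and 106 CPM in control libraries. Of the 12 cell wall and pectin genes, 6 were lower and 2 higher without overlap (4.42% and 3.46% of all genes). These 8 were among the 9 that the study chose on these libraries, while the 3 chosen on another treatment overlapped, with a median log2 fold change of 0.27. The lower ones included 4 genes of pectin modification: a BURP-domain polygalacturonase-type gene (Csa03g027580), a pectin lyase-like gene (Csa09g011170) and the pectin methylesterase-type genes Csa20g032840 and Csa11g082600, with log2 fold changes of -1.34, -0.91, -0.91 and -0.70. Csa03g027580 had 1 CPM in each *35S::acdS* library and 4, 3 and 3 CPM in control libraries.

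PHO2, an E2 ubiquitin-conjugating enzyme that limits phosphate transport in the root, was among the most abundant genes of the lists. Csa05g021540 had 354, 371 and 351 CPM in *35S::acdS* and 599, 541 and 559 CPM in control libraries (-0.66, SE 0.13, adjusted p = 0.332 from limma), and *rolD::acdS* roots had 422, 495 and 363 CPM. The 3 *35S::acdS* libraries lay close together and below every control library, and *rolD::acdS* replicate 3 was among them. The other ubiquitin enzymes were less abundant: Csa00626s010, ubiquitin-conjugating enzyme 29, had 2, 3 and 4 CPM in *35S::acdS* and 7, 7 and 8 CPM in control libraries, and the RING-type E3 ligase gene Csa15g026410 had 5, 6 and 5 CPM in *35S::acdS* and 13, 8 and 10 CPM in control libraries. A kelch-repeat gene, Csa06g007080, had 72, 87 and 61 CPM in *35S::acdS* and 118, 139 and 136 CPM in control libraries. Of the 9 genes of this list, 7 were tested, and 6 were lower and 0 higher without overlap (4.42% and 3.46% of all genes). The study chose the 6 on these libraries, and the gene chosen on another treatment overlapped, at a log2 fold change of -0.35.

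Listed clock genes that peak around dawn were lower in each copy tested. LHY is a MYB-type core component of the circadian clock with 3 copies. Csa14g002120 had 33, 39 and 30 CPM in *35S::acdS* and 71, 58 and 60 CPM in control libraries. Csa17g001540 had 36, 43 and 36 CPM in *35S::acdS* and 77, 61 and 66 CPM in control libraries, and Csa03g002180 had 37, 40 and 32 CPM in *35S::acdS* and 72, 59 and 61 CPM in control libraries. The copies were at near-equal levels, and their sum was 109 ± 12.2 CPM in *35S::acdS* and 195 ± 22.1 CPM in control roots (SD, n = 3). The 3 differences on the log2 scale were -0.88, -0.82 and -0.81, for which limma gave an adjusted p of 0.357, 0.457 and 0.357. REVEILLE 1 (Csa20g025380), which links the clock to auxin, had 11, 9 and 9 CPM in *35S::acdS* and 24, 13 and 21 CPM in control libraries. A Dof zinc finger gene, Csa17g034060, had 2 CPM in each *35S::acdS* library and 7, 5 and 5 CPM in control libraries. The light-signalling factor PIF5 (Csa04g046570) was on the other side, with 8, 5 and 5 CPM in *35S::acdS* and 2, 2 and 3 CPM in control libraries. Of the 7 clock and light genes, 5 were lower and 1 higher without overlap (4.42% and 3.46% of all genes), and the study chose all 7 on these libraries. The remaining gene, Csa13g018660, overlapped between groups, but its mean was higher in *35S::acdS* roots. It had the largest log2 fold change of the list, 1.55. LHY was 49, 30 and 27 CPM (Csa14g002120) in *rolD::acdS* roots, where replicate 1 again stood nearer to the control. The hour at which each root sample was taken is not given in the sources used here.

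Defence lists differed in how many genes lay apart. Of 9 pathogenesis-related (PR), glucanase and chitinase genes, 7 were lower and 0 higher without overlap (4.42% and 3.46% of all genes), and 0 were called. These 7 were among the 8 that the study chose on these libraries, and the gene chosen on another treatment overlapped, at a log2 fold change of -0.42. Osmotin 34 (Csa13g048800), a PR-5-type protein, had 10, 19 and 15 CPM in *35S::acdS* and 41, 41 and 25 CPM in control libraries (-1.26, SE 0.26). The PR-1-like CAP gene Csa12g010010 had 46, 45 and 40 CPM in *35S::acdS* and 50, 102 and 191 CPM in control libraries, so that the control spread by far more than the *35S::acdS* group. Csa06g033000, a beta-1,3-glucanase 2 gene, had 5, 10 and 9 CPM in *35S::acdS* and 17, 57 and 13 CPM in control libraries, with control replicate 2 apart. Csa18g011250, of the same enzyme class (glycosyl hydrolase family 17), was steadier, with 21, 33 and 29 CPM in *35S::acdS* and 48, 54 and 45 CPM in control libraries. The chitinase gene Csa05g006780, which together with Csa18g035240 had the smallest adjusted p of the comparison (0.141, limma), was listed at 0 in each *35S::acdS* library and at 2, 2 and 1 CPM in control libraries.

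All 6 WRKY and NIM1-interacting 2 genes, regulators tied to salicylate, were lower without overlap (4.42% of all genes), and the study chose all 6 on these libraries. The WRKY51 copies had 5, 5 and 5 CPM (Csa02g073920) and 7, 9 and 7 CPM (Csa18g038500) in *35S::acdS* libraries, against 10, 11 and 11 CPM (Csa02g073920) and 16, 18 and 13 CPM (Csa18g038500) in control libraries. WRKY54 (Csa05g011960) was listed at 0 in each *35S::acdS* library and at 1, 2 and 3 CPM in control libraries. *rolD::acdS* replicate 2 was high in both WRKY51 copies, with 14 and 22 CPM. Of 11 thionins and defensins, which are small antimicrobial peptides, 8 overlapped between groups, 2 were lower and 1 higher, and all 6 chosen on another treatment overlapped. The lower ones were the thionins Csa12g082030, with 1, 2 and 1 CPM in *35S::acdS* and 4, 5 and 3 CPM in control libraries, and Csa15g014900, with 12, 19 and 21 CPM in *35S::acdS* and 34, 34 and 27 CPM in control libraries. The defensin Csa10g040380 was higher, with 188, 56 and 79 CPM in *35S::acdS* and 53, 31 and 44 CPM in control libraries, and its highest value came from replicate 1.

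Class III peroxidases, which use hydrogen peroxide in the wall, gave 5 genes lower and 1 higher without overlap among 8 (4.42% and 3.46% of all genes). These were the 6 that the study chose on these libraries, and both chosen on another treatment overlapped. Peroxidase 10 (Csa17g083270) had 24, 42 and 47 CPM in *35S::acdS* and 76, 112 and 103 CPM in control libraries. The neighbours by identifier Csa06g041180 and Csa06g041190, both of the C3 type, had 46, 50 and 61 CPM and 21, 28 and 30 CPM in *35S::acdS* libraries, against 71, 109 and 100 CPM and 41, 50 and 47 CPM in control libraries. The copies of peroxidase 20, Csa04g047700 and Csa05g018890, had log2 fold changes of -0.98 and -0.94. The higher one was peroxidase 34 (Csa06g023070), with 123, 59 and 83 CPM in *35S::acdS* and 46, 32 and 46 CPM in control libraries (1.04, SE 0.24), again highest in replicate 1.

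The listed UGT74E2, UGT74D1 and UGT73C7 genes were higher, and the study chose all of them on these libraries. They encode glycosyltransferases, which attach sugars to hormones and other small molecules. UGT74E2, which acts on the auxin precursor indole-3-butyric acid, had in Csa14g007040 119, 107 and 126 CPM in *35S::acdS* and 53, 22 and 63 CPM in control libraries (1.47, SE 0.32, adjusted p = 0.357 from limma). The copy Csa17g009070 had 71, 68 and 62 CPM in *35S::acdS* and 27, 9 and 32 CPM in control libraries (1.72, SE 0.38). Control replicate 2 was the lowest library in both copies, and *rolD::acdS* libraries had 74, 57 and 73 CPM of Csa14g007040, below every *35S::acdS* library and overlapping with the control. UGT74D1 (Csa05g029410) had 17, 15 and 14 CPM in *35S::acdS* and 9, 7 and 7 CPM in control libraries.

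UGT73C7 had 3 copies, and all were higher in every *35S::acdS* library. Csa06g027600 had 98, 99 and 94 CPM in *35S::acdS* and 49, 34 and 58 CPM in control libraries. Csa04g039100 had 43, 39 and 38 CPM in *35S::acdS* and 16, 12 and 25 CPM in control libraries, and Csa09g061430 had 42, 32 and 30 CPM in *35S::acdS* and 16, 9 and 18 CPM in control libraries. The next gene listed after the copies on chromosomes 4 and 9 is on each a gene annotated fluG, which resembles glutamine synthetase (glutamate-ammonia ligase). The fluG genes had 33, 26 and 31 CPM (Csa04g039120) and 23, 22 and 18 CPM (Csa09g061450) in *35S::acdS* libraries, against 14, 11 and 17 CPM and 7, 5 and 9 CPM in control libraries. The 2 genes of each chromosome thus differed between the groups in the same direction (1.22 and 1.09 on chromosome 4, 1.29 and 1.55 on chromosome 9), while the genes listed on either side of each pair in the deposited table, which carry no annotation here, overlapped between groups and had log2 fold changes of -0.30 to -0.15. On chromosome 6, the gene listed next after the UGT73C7 copy had 2 CPM in all 6 libraries. The *rolD::acdS* libraries lay above the control as well. Summed over copies, UGT73C7 had 130, 114 and 177 CPM in *rolD::acdS* and 81, 55 and 101 CPM in control libraries. The fluG genes summed to 41, 29 and 37 CPM in *rolD::acdS* and 21, 16 and 26 CPM in control libraries. The higher levels were thus not particular to *35S::acdS* roots.

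GH3 enzymes conjugate hormones to amino acids. The GH3 gene with the largest fold change, Csa17g080380, had 8, 5 and 2 CPM in *35S::acdS* and 1, 1 and 0 CPM in control libraries (2.23, SE 0.65). Among the others were Csa10g003770, with 2, 1 and 1 CPM in *35S::acdS* and listed at 0 in each control library, and Csa12g003970, with 6, 2 and 3 CPM in *35S::acdS* and 1, 1 and 2 CPM in control libraries. Another gene of the list that joins GH3 and glycosyltransferase genes, Csa03g010320, was lower, with 4, 3 and 3 CPM in *35S::acdS* and 5, 7 and 7 CPM in control libraries. Which of these classes it belongs to is not given here. Csa14g054830 and Csa02149s010 were also tested and are not described here. Of the 13 genes in the list of GH3 and glycosyltransferase genes, 12 were tested, and 8 were higher and 1 lower without overlap (3.46% and 4.42% of all genes). All 13 were chosen by the study on these libraries. The study reports that droplet digital PCR and RNA sequencing gave very similar profiles for the genes it selected. It designed such PCR assays for 7 genes, of which 3 were tested here. The oligonucleotides of the 2 among them that it listed for this comparison are shown, 5′ to 3′ and in lower case throughout, because they mark the transcript region that such an assay reads. The assay for Csa17g080380 is given in the study under an identifier with 1 digit fewer, and its match to this gene is an inference from the spelling.
GH3 gene, forward: ccggccatcaaaatgtaattcagag
GH3 gene, reverse: cgttaacaaccacaaccttgtctctc
GH3 gene, probe: tgccccgacatcaaccaaagt
Kunitz inhibitor, forward: ccgccattacatttcccttctgt
Kunitz inhibitor, reverse: cctctgtttatatgagaagctaaccgg
Kunitz inhibitor, probe: cccaaacactccttccgtaccag
The Kunitz-type protease inhibitor gene, Csa07g039380, was listed at 0 in each *35S::acdS* library and at 1, 7 and 0 CPM in control libraries, so the groups overlapped and 1 control library carried the difference. The third gene, Csa20g044800 (myrosinase-binding protein 2), had 2, 0 and 1 CPM in *35S::acdS* and 7, 13 and 0 CPM in control libraries, which overlapped as well.

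**Figure D3:**
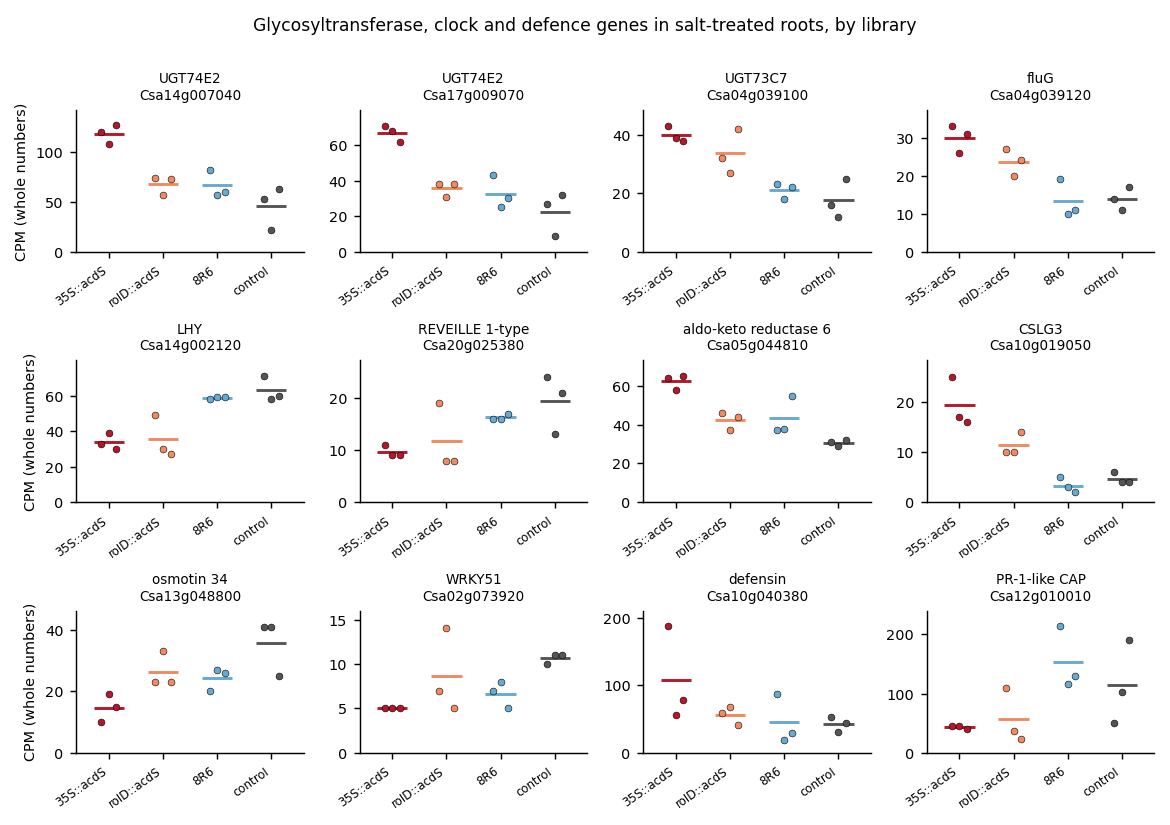
Each panel is a gene, with CPM in whole numbers on the y axis from 0, points for the 3 libraries of each group in the order of replicates, and a bar for the group mean. *35S::acdS* points lie above control points for UGT74E2, UGT73C7, fluG, aldo-keto reductase 6, CSLG3 and the defensin, and below them for LHY, REVEILLE 1-type, osmotin 34, WRKY51 and the PR-1-like gene.

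Among 7 ABC and MATE transporter genes tested, which export organic molecules, 5 were higher and 0 lower without overlap (3.46% and 4.42% of all genes). These were the 5 that the study chose on these libraries, with log2 fold changes of 0.80 to 1.29. Csa19g018380, the ABC transporter MRP3, had 103, 104 and 119 CPM in *35S::acdS* and 63, 33 and 73 CPM in control libraries. Csa03g002550, P-glycoprotein 11, had 86, 83 and 114 CPM in *35S::acdS* and 56, 42 and 64 CPM in control libraries. The MATE gene Csa19g039430 (DETOXIFICATION 1) had 11, 11 and 16 CPM in *35S::acdS* and 3, 4 and 9 CPM in control libraries. The 2 tested ABC and MATE genes chosen on another comparison overlapped. Of 6 nitrate and peptide transporters, 2 were higher and 4 overlapped, among them all 3 chosen on another treatment. Csa07g034250 had 38, 22 and 16 CPM in *35S::acdS* and 13, 10 and 12 CPM in control libraries, and the high-affinity nitrate transporter gene Csa04g025870 had 11, 3 and 10 CPM in *35S::acdS* and 3, 2 and 2 CPM in control libraries, which touch at 3 CPM.

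Of 8 sugar transporter genes, 5 were higher and 2 lower without overlap (3.46% and 4.42% of all genes), and these 7 were chosen by the study on these libraries. The lower ones were SWEET genes, which let sucrose out of cells: Csa10g017960 (SWEET14) had 21, 23 and 13 CPM in *35S::acdS* and 35, 40 and 38 CPM in control libraries, and Csa02g039390 (SWEET13) had 10, 15 and 12 CPM in *35S::acdS* and 20, 31 and 18 CPM in control libraries. The SWEET gene chosen on another treatment, SWEET16 (Csa19g023540), overlapped, with 6, 5 and 6 CPM in *35S::acdS* and 6, 7 and 7 CPM in control libraries. Among the higher ones were carriers of the ERD6-like type: Csa20g027310 had 50, 46 and 49 CPM in *35S::acdS* and 8, 17 and 21 CPM in control libraries (1.73, SE 0.68), and Csa08g011370 had 71, 89 and 63 CPM in *35S::acdS* and 24, 38 and 31 CPM in control libraries. *rolD::acdS* libraries had 6, 5 and 30 CPM of Csa20g027310, so that its replicates spread more widely than those of either group compared. Of 10 genes of amino acid metabolism and export, 5 were higher and 1 lower without overlap, and 4 overlapped, 3 of them chosen on another treatment. Asparagine synthase 1 (Csa06g020990) had 71, 20 and 19 CPM in *35S::acdS* and 11, 6 and 12 CPM in control libraries, and homocysteine S-methyltransferase 3 (Csa01g026000) had 11, 9 and 24 CPM in *35S::acdS* and 3, 5 and 6 CPM in control libraries. In each, 1 *35S::acdS* library stood far above the other 2. Glutamine dumper 3 (Csa18g030770), a regulator of amino acid export, was lower, with 30, 29 and 29 CPM in *35S::acdS* and 72, 48 and 44 CPM in control libraries (-0.85, SE 0.16).

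Cytochrome P450 genes went both ways. Of 19 listed genes, 17 were tested, of which 6 were higher and 5 lower without overlap (3.46% and 4.42% of all genes). Of the 11 that the study chose on these libraries 4 were higher and 5 lower, and of the 6 chosen on another treatment 2 were higher and 0 lower. Lower were 3 copies of a P450 gene (Arabidopsis AT1G01190), which summed to 32.7 ± 6.66 CPM in *35S::acdS* and 67 ± 10.8 CPM in control roots (SD, n = 3). CYP71A20 (Csa12g066100) was also lower, with 24, 32 and 24 CPM in *35S::acdS* and 47, 46 and 54 CPM in control libraries. Higher was CYP71A23 (Csa04g032380), with 5, 9 and 4 CPM in *35S::acdS* and 1, 2 and 1 CPM in control libraries. Of 12 lipid transfer protein-type genes, 7 were lower and 1 higher without overlap (4.42% and 3.46% of all genes). These 8 were among the 9 that the study chose on these libraries, and the 3 chosen on another treatment overlapped, with a median log2 fold change of -0.11. Csa19g031830 had 20, 23 and 22 CPM in *35S::acdS* and 35, 36 and 44 CPM in control libraries, and AIR1 (Csa13g050980), an auxin-induced gene of the same domain family, had 6, 12 and 22 CPM in *35S::acdS* and 20, 61 and 106 CPM in control libraries, which overlapped. In the synthesis of aliphatic glucosinolates, 2 of 5 genes were higher without overlap and 3 overlapped, and the study chose both of the higher ones on these libraries. The methylthioalkylmalate synthase-type gene Csa08g017380 had 14, 12 and 28 CPM in *35S::acdS* and 2, 8 and 8 CPM in control libraries, and the UDP-glycosyltransferase gene Csa05g029370 had 21, 21 and 51 CPM in *35S::acdS* and 6, 12 and 16 CPM in control libraries. Replicate 3 was the highest *35S::acdS* library in both.

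All 4 tested genes of the PEBP family, which includes activators and repressors of flowering, were lower without overlap (4.42% of all genes), and the study chose all 4 on these libraries. The 3 copies of MOTHER OF FT AND TFL1 summed to 34 ± 11.3 CPM in *35S::acdS* and 69.7 ± 9.02 CPM in control roots (SD, n = 3). Their sum was 45, 57 and 43 CPM in *rolD::acdS* libraries, also below the 69, 61 and 79 CPM of the control libraries. The centroradialis-type gene Csa07g061090 had 2, 12 and 14 CPM in *35S::acdS* and 33, 35 and 18 CPM in control libraries.

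Further pairs of annotated copies were singled out after their values were seen. Galactose mutarotase-like genes (aldose 1-epimerase), which interconvert the forms of a sugar ring, were lower: Csa19g003320 had 128, 198 and 147 CPM in *35S::acdS* and 344, 569 and 356 CPM in control libraries, and Csa15g001220 had 57, 124 and 73 CPM in *35S::acdS* and 181, 238 and 186 CPM in control libraries. The HPT phosphotransmitter 4 copies, of the cytokinin relay, were lower as well, Csa01g019090 with 9, 6 and 12 CPM in *35S::acdS* and 27, 16 and 22 CPM in control libraries, and Csa19g023240 with 3, 3 and 8 CPM in *35S::acdS* and 15, 10 and 11 CPM in control libraries. Spermidine disinapoyl acyltransferase (Csa09g087770) had 23, 29 and 22 CPM in *35S::acdS* and 49, 53 and 57 CPM in control libraries (-1.10, SE 0.21). All were listed by the study for this comparison and none was called.

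The lists also held genes that the study had chosen on the other treatments, which share these control libraries but not the *35S::acdS* libraries. Among the 60 that were tested, 3 lay above and 0 below the control without overlap, beside 3.46% and 4.42% of all genes. At an unadjusted p under 0.05 from limma, 3 were higher and 3 lower, beside 3.01% and 4.12% of all genes. The 3 above the control without overlap were CYP71B7 (Csa17g018450), at 1 CPM in each *35S::acdS* library and listed at 0 in each control library, a CYP71B2-like gene (Csa17g018400) with 3, 3 and 8 CPM in *35S::acdS* and 1, 2 and 2 CPM in control libraries, and threonine aldolase 1 (Csa14g010130) with 53, 23 and 28 CPM in *35S::acdS* and 18, 14 and 22 CPM in control libraries. All 7 tested ethylene response factors overlapped between groups, with a median log2 fold change of 0.53. ERF105-type gene Csa11g082690 had 55, 8 and 16 CPM in *35S::acdS* and 12, 7 and 11 CPM in control libraries, where 1 *35S::acdS* library carried the difference of the means. Of 12 tested jasmonate genes, 11 overlapped, with a median log2 fold change of 0.00 over the 12, and the exception was OPR1 (Csa16g040840), 12-oxophytodienoate reductase 1, with 30, 22 and 39 CPM in *35S::acdS* and 9, 11 and 20 CPM in control libraries. OPR1 was the only one of these jasmonate genes that the study listed for *35S::acdS* roots. All 7 low-oxygen genes overlapped, and the mean of each was lower in *35S::acdS* roots, with a median log2 fold change of -0.60. The 3 copies of the transcription factor LBD41 summed to 81.7 ± 54.9 CPM in *35S::acdS* and 131 ± 75.4 CPM in control roots (SD, n = 3), and the means differed by less than the spread of either group, with replicate 3 the highest library in both groups.

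**Figure D4:**
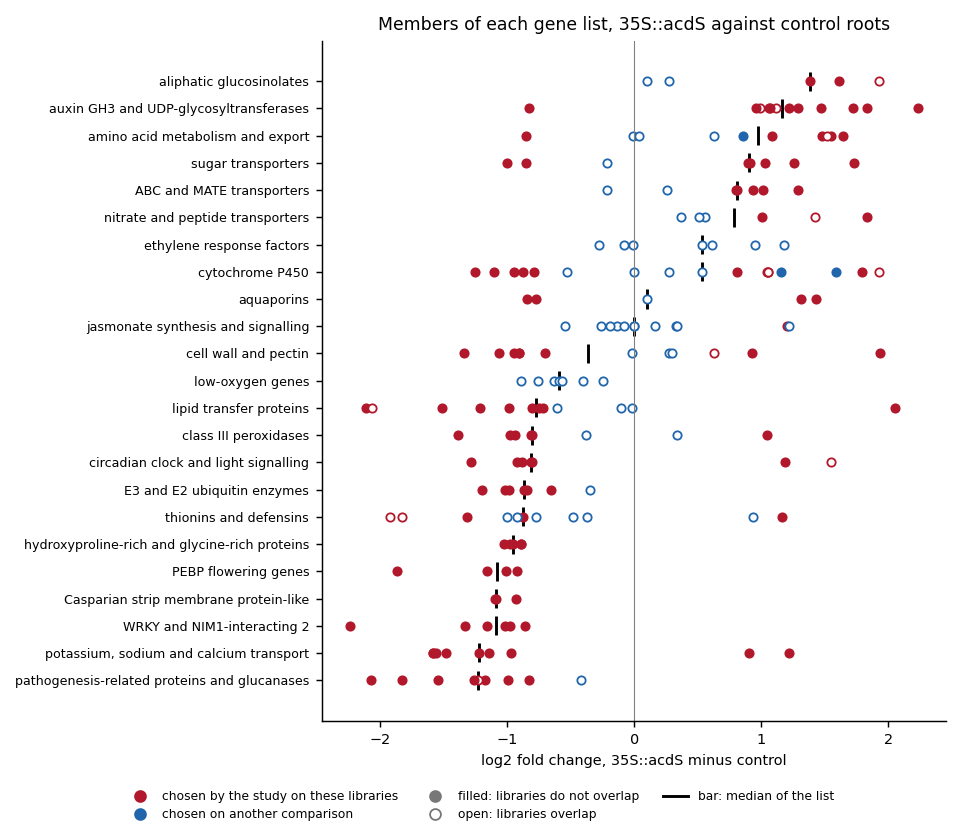
Each row is a gene list and each point a tested member, placed on the x axis by its log2 fold change (*35S::acdS* minus control), with rows ordered by the list median (black bar). Red points are genes that the study chose on these libraries, and they lie away from 0 in each list, and blue points were chosen on another comparison and are nearly all open, which marks overlap between the 3 *35S::acdS* and the 3 control libraries.

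Set directly against *rolD::acdS* roots, the *35S::acdS* roots differed in 2 genes that were called higher (0.00416% of genes) and 0 called lower with limma, with 1690 (3.51%) higher and 1930 (4.01%) lower at an unadjusted p under 0.05. The number higher was 2852 without *rolD::acdS* replicate 1 and 1085 without *rolD::acdS* replicate 2. Both called genes, Csa11g007100 and Csa20g039340, had 1 CPM in each *35S::acdS* library and 0 in each *rolD::acdS* library (adjusted p = 0.0345 from limma), and both had 1 CPM in each control library too. Without any 1 of the 3 *35S::acdS* libraries their adjusted p was 0.0579 to 0.116. Without overlap, 1721 genes (3.58%) were higher and 1686 (3.51%) lower. Among 12 jasmonate genes, 6 were lower without overlap in *35S::acdS* than in *rolD::acdS* roots and 0 were higher. The study had chosen 11 of these 12 on the *rolD::acdS* libraries, so this count is not independent of them. Sulfotransferase 2A (Csa20g009360), which acts on hydroxyjasmonate, had 9, 4 and 22 CPM in *35S::acdS* and 162, 45 and 72 CPM in *rolD::acdS* libraries. Of 11 thionins and defensins, 6 were lower and 0 higher without overlap: Csa01g012200 had 8, 15 and 10 CPM in *35S::acdS* and 43, 36 and 56 CPM in *rolD::acdS* libraries. The study chose 5 of these 11 on *35S::acdS* against control and 6 on another comparison of these data, so this count is not independent of that choice. No gene of these lists was called in this comparison.

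A fit of the 6 libraries alone, instead of all 12, called 37 genes, 17 higher and 20 lower. Of these, 35 had equal values within both groups, and 32 stood at 1 CPM in 1 group and at 0 in the other, so that their spread was 0 after rounding. The 2 called genes with any spread were the aldo-keto reductase gene Csa05g044810 (adjusted p = 0.0153 from limma in this fit) and the WRKY51 gene Csa02g073920 (adjusted p = 0.0144). In all, 1265 tested genes had equal values within both groups. Of the called genes with equal values, 3 had more than 2 CPM in a library, among them the SKOR gene Csa01g002460 (adjusted p = 0.00259 from limma in this fit).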

How the data were processed

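The deposited table holds whole-number CPM per gene for 12 root libraries, treated here as a score, since rounding of the CPM by the authors is inferred from the values and the reads behind them are unknown. Per the labels and methods, the authors trimmed reads with Trimmomatic, mapped them to the *C. sativa* genome with STAR, scaled counts by library size, and used DESeq and edgeR, and the tool versions are not given in the sources used here. RNA was prepared with a strand-specific kit, and the strand setting of the counting is not given in the sources used here. A count test was therefore replaced by limma 3.58.1 (R 4.3.3) on log2(CPM + 0.5), with 1 fit of the 4 group means, 3 biological replicates each, and empirical Bayes moderation with a trend. Genes with at least 1 CPM in at least 3 libraries were tested. A call required a Benjamini-Hochberg p no larger than 0.05 and a log2 fold change beyond 0.8 in size.

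Named were all called genes, the 12 annotated genes with the smallest p in each direction among those without overlap and with a mean of at least 5 CPM in a group, 2 unannotated genes in each direction by the same rule, list members with a mean of at least 2 CPM, and genes with a droplet digital PCR assay. Exceptions, chosen after their values were seen, are genes under these means and the pairs said to be singled out. Members and lists were chosen with earlier results of these data known, from the annotation in the supplement of the study. The scripts were tested on simulated data. Groups came from the labels. With 3 libraries against 3, an exact permutation test of 1 gene cannot go below p = 0.1 (two-sided). Alternatives were pseudocounts of 0.1 and 1, other filters, size factors, quantile normalization, the compared groups alone, a replicate block, no trend, robust moderation, no fold change limit, and leaving out each library.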

Additional observations from a re-analysis of the deposited data

Results flagged for a closer look

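The test of the difference between the *35S::acdS* and the *rolD::acdS* line drew attention to Csa11g007100 and Csa20g039340. Each stood at 1 CPM in the 3 *35S::acdS* libraries and was listed at 0 in the 3 *rolD::acdS* libraries, a difference of 1.585 on the log2(CPM + 0.5) scale for each gene, with an adjusted p of 0.0345 from limma. A difference of 1 rounding step is the smallest that the values can show, and both genes carry no annotation in the sources used here. Groups of 3 libraries are too small for a test of single outlying libraries.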

How the results depend on the processing

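Against control roots, 4 genes were higher and 2 lower both without the filter and without the trend, and 17 were higher and 20 lower with only the groups compared in the fit, against 0 and 0 as reported. Of the listed genes, 2, 2 and 5 were called in these 3 settings, against 0. Leaving out single libraries gave 0 to 5 genes higher and 0 to 1 lower. Against *rolD::acdS* roots, where 2 genes were called higher and 0 lower, the number higher was 0 with a pseudocount of 1, a mean of at least 5 CPM, size factors, the replicate block or robust moderation, 5 without the filter or the trend, and 24 with only the groups compared. The number lower was 1 with a pseudocount of 0.1, 3 without the filter or the trend, and 15 with only the groups compared. Leaving out single libraries gave 0 to 8 higher and 0 to 2 lower. At an unadjusted p under 0.05, 919 genes were higher than in control roots with a mean of at least 5 CPM, against 1446. The smallest adjusted p of a *35S::acdS* to control difference from limma was 0.213 with size factors and 0.0514 with a pseudocount of 0.1.

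Of 112 named genes followed through the 11 alternatives and the 12 libraries left out in turn, 110 kept the sign of their fold change against control. The exceptions were Csa20g009360 and Csa06g036830, with log2 fold changes of -1.38 to 0.0217 and of -0.611 to 1.08 when single libraries were left out. List medians moved most for aquaporins, to -0.81 with a mean of at least 5 CPM, against 0.10. No alternative shifted the median of all genes by more than 0.0162.

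Replicate numbers did not pair the samples: same-numbered libraries of the 2 groups had deviations that correlated at 0.134, -0.0129 and 0.0722 across genes, and the closest control library to *35S::acdS* replicates 1, 2 and 3 was replicate 1, 1 and 2. With the replicate block, 0 genes were higher and 0 lower than in control roots. The main limits are 3 libraries a group, transgenic plants described as 1 line and values rounded to whole CPM, which leave genes under a few CPM with few distinct values.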
